A study of Mus musculus with 6 samples.

Results

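Lysosomes and the granules of killer T cells are built from one set of parts, and 46 mouse genes for those parts were followed here in central memory and effector/effector memory CD8+ T cells. The genes were chosen by name, as genes for cathepsins, other lysosomal hydrolases, lysosomal membrane proteins, sorting factors and the proteins that dock and fuse granules, and each of the 46 was the symbol of at least 1 probe set. They make up 46 of 15964 genes named on the arrays and 96 of 36899 probe sets. The cells came from spleen and lymph nodes of female P14 mice on the C57Bl/6 background, whose CD8+ T cells carry a transgenic receptor, and were cultured with the receptor's peptide for 2 days. Cells then kept for 7 days in IL-15 are called central memory (CM), and cells kept for 7 days in IL-2 are called effector/effector memory (E/EM). Sorting kept IL-15 cells with much of a surface marker and IL-2 cells with little of it, so the cytokine and the sort differ together between the kinds and cannot be told apart. Both kinds are models made in culture from cells with a shared receptor, and the labels do not say how many mice were used.

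Each kind was hybridised to 1 array of each of 3 types that differ in their probe sets (SubA, SubB and SubC). There were no replicates, so no test was possible and no p-value is given. A difference is described by its size alone, and it is not stated if 1 RNA preparation served all 3 arrays of a kind. A ratio is the CM signal over the E/EM signal of a probe set on the same array type, given as log2, and is negative where CM cells had less signal. It was formed where both signals lay above a floor set by bacterial control probe sets, 31.28 on SubA, 88.12 on SubB and 194.34 on SubC, and a gene's value is the mean over its probe sets with the SD over probe sets, which is technical. The labelled cell type was borne out by its markers, with Cd8a signals of 5882.7 in CM and 5133.8 in E/EM cells and all 9 listed CD8 T cell genes that were named on the arrays above the floor in both kinds. Because these are bulk RNA samples, fewer cells of a type and less RNA per cell cannot be told apart.

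Lysosomal enzymes are made in the endoplasmic reticulum, tagged with mannose 6-phosphate in the Golgi apparatus and carried to the lysosome by receptors for that tag. Cytotoxic T cells also have secretory lysosomes, the lytic granules, which hold granzymes and perforin. These granules are moved to the contact with a target cell, docked and fused with the plasma membrane. The hydrolases keep their general degradative work in such organelles, so a T cell uses much of this gene set whether or not it is killing.

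Most of these genes had much the same signal in both kinds of cells. Of the 46 genes, 41 had a ratio (68.6% of all named genes had one), 1 was above the floor in E/EM cells alone and 4 were above it in neither. No member without a ratio was above the floor in 1 kind only and past 2-fold, as 1.55% (lower in CM) and 0.626% (higher in CM) of all named genes were. The median log2 ratio of the 41 genes was -0.04, against -0.0025 for all 10946 measured genes, with the middle of the member values between -0.20 and 0.34 (25th and 75th percentiles). Only Lyst was at least 2-fold higher in CM cells, 1 of 41 members where 2.73% of all measured genes passed, and only Cd68 was at least 2-fold lower, 1 of 41 where 5.61% of all genes passed. At 1.5-fold there were 3 members lower (Cd68, Igf2r and Rab27a) and 3 higher (Lyst, Npc2 and Ctsl), against 13.9% and 10.1% of all measured genes. The other 35 members, or 85.4%, lay within 1.5-fold, as did 76.0% of all measured genes. Above 0 were 19 members and below 0 were 22, and 49.7% of all measured genes lay above 0. These counts lie near those of all genes and set the list apart in neither direction.

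**Figure D1:**
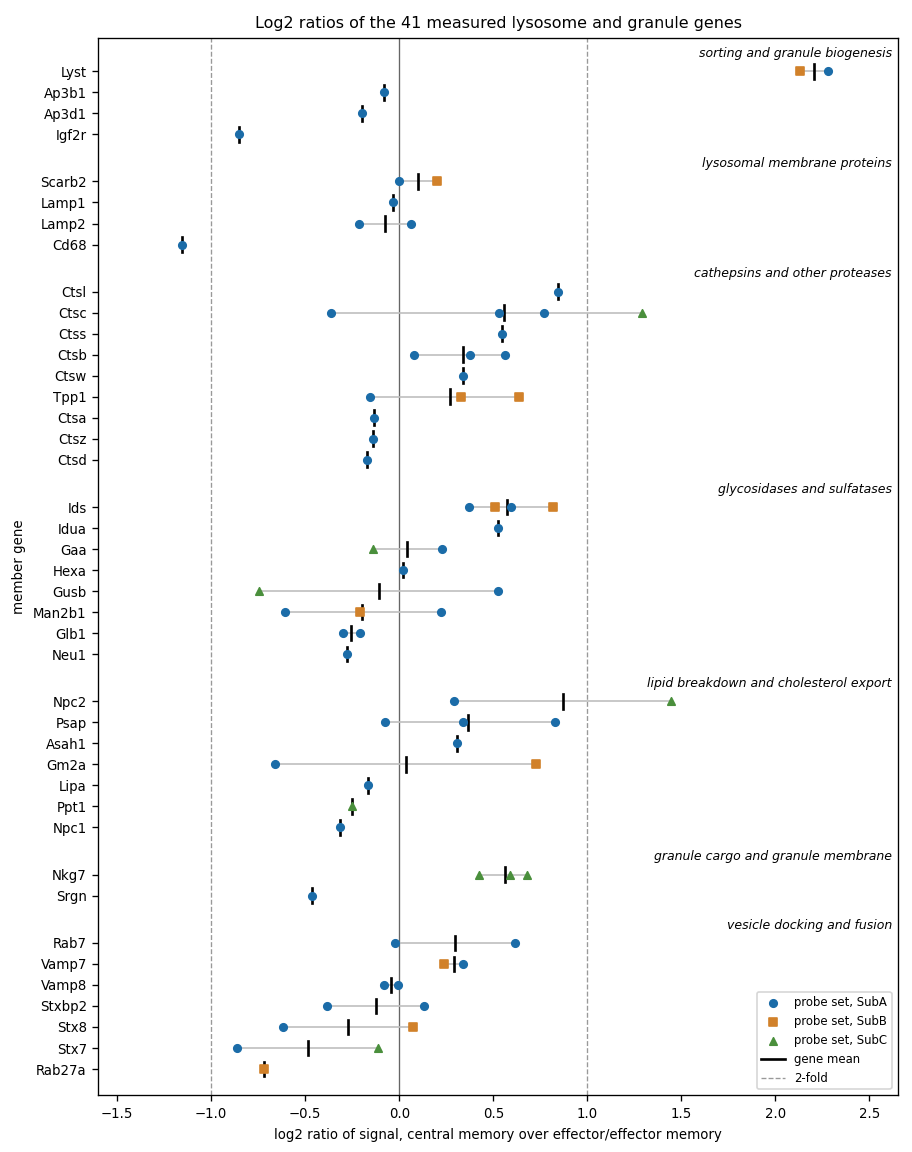
CM over E/EM signal as log2 ratio (x axis) for each of the 41 measured member genes (y axis), grouped by role. Symbols are probe sets, marked by array type, joined by a grey line, and the black tick is the gene mean; dashed lines mark 2-fold. By gene mean, Lyst alone lies beyond 2-fold on the right at 2.20 and Cd68 alone on the left at -1.16. Probe sets of Ctsc, Gm2a, Gusb and Npc2 spread over more than 1 unit, those of Ctsc most widely, from -0.37 to 1.29.

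**Figure D2:**
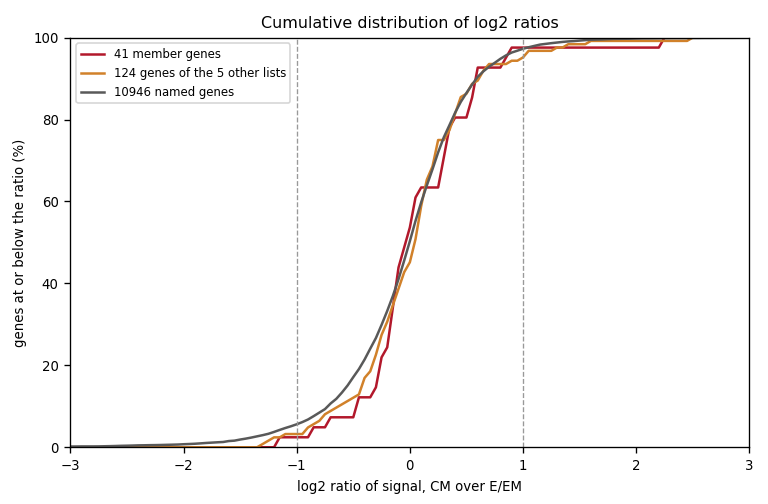
Percent of genes (y axis) at or below each CM over E/EM log2 ratio (x axis), for the 41 member genes, the 124 measured genes of 5 other lysosome and granule lists and all 10946 measured named genes. The 3 curves run close together, with medians of -0.04, 0.04 and -0.0025, and the tail below -1 is longest for all named genes.

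A short word was searched for near the gene starts. Many lysosomal genes carry the palindrome CACGTG, the core of the element read by TFEB and its relatives TFE3 and MITF, near their start. RefSeq promoter sequence (GRCm38.p6, 250 bases before to 50 after an annotated start) was at hand for 39 members, and 11 of them (28.2%) held CACGTG, against 10.6% of 12681 genes named on the arrays and 8.1% of 27025 genes in the table. Since the word reads the same on both strands, 1 search covers both. The longer word TCACGTGA, which contains it, was found in 4 of 39 members (10.3%) and in 1.8% of the 12681 genes. Windows per gene averaged 1.18 for members and 1.26 for the 12681 genes. The 250 bases upstream of 4 members are shown, 5′ to 3′ with CACGTG in capitals, because they contrast Lyst, the member that differed most, with a membrane protein, a protease and a sorting receptor that carry the word. They lie at chr13:13590159-13590408 (+ strand) for Lyst, chr8:13158911-13159160 (+ strand) for Lamp1, chr7:142387828-142388077 (- strand) for Ctsd and chr17:12769707-12769956 (- strand) for Igf2r.
Lyst: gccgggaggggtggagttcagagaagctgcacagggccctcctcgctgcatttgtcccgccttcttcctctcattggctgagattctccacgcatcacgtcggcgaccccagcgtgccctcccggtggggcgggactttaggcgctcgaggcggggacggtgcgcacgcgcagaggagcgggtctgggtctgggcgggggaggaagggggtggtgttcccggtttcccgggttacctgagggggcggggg
Lamp1: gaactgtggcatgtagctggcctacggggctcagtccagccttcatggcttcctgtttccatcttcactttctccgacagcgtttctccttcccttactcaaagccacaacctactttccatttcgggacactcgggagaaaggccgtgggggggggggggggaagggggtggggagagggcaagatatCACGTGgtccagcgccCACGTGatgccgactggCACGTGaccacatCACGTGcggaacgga
Ctsd: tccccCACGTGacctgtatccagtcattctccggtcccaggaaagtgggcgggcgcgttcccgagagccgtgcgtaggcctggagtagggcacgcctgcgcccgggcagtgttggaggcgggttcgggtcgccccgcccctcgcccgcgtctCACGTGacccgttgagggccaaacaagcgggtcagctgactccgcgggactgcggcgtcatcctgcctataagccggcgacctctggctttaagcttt
Igf2r: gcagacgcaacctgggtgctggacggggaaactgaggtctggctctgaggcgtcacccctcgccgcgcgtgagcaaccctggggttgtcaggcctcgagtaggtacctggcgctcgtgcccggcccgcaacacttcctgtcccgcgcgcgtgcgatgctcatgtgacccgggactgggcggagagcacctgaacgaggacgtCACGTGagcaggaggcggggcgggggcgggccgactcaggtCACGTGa
The Lamp1 sequence holds the word at 4 places, starting at -61, -45, -28 and -15 with the first base of the gene counted as 0. In Ctsd it starts at -245 and -98, and in Igf2r at -48 and -7. These letters do not occur in the Lyst window, as they do not in most members (28 of 39 lack them). Their absence says nothing about which factors act there. The 9 measured members with CACGTG had a median log2 ratio of -0.13 (from -0.85 to 0.84, with 2 above 0), and the 27 measured members without it had -0.04 (from -1.16 to 2.20, with 13 above 0). A match is a description of the letters and not a site in use in these cells.

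Among the genes for sorting and granule biogenesis, Lyst stood far from the rest. Lyst encodes a large protein that limits the size of lysosomes and lytic granules, and its loss gives the giant granules of beige mice and of Chediak-Higashi syndrome. The SubA probe set had a signal of 565.4 in CM cells, against 116.6 in E/EM cells, and the SubB probe set had 2972.9 in CM cells, against 678.7 in E/EM cells. Both array types put the CM signal far above the E/EM signal, 4.85-fold on SubA and 4.38-fold on SubB. The gene's log2 ratio was 2.20 ± 0.10 (SD, 2 probe sets), above 99.9% of all measured genes, and it stayed between 2.00 and 2.28 in every processing alternative tried. Its weaker signal was 3.73 times the floor on SubA and 7.70 times on SubB.

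The other genes of that group did not follow Lyst. Igf2r, the large receptor that carries mannose 6-phosphate tagged enzymes and also binds insulin-like growth factor 2, had a signal of 845.5 in CM cells, against 1525.5 in E/EM cells, a log2 ratio of -0.85 from 1 probe set. That signal lies well above the floor in both kinds. Ap3b1 and Ap3d1, the beta and delta chains of the AP-3 adaptor that brings cargo to lysosome-related organelles, had -0.08 and -0.20. Both probe sets of M6pr, the smaller receptor for the same tag, lay under the floor in both kinds, and 1 further probe set that names M6pr together with another gene was not used.

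By gene means, lysosomal membrane proteins were close to equal apart from Cd68. Lamp1, which coats the inner face of the lysosomal membrane and appears on the surface of T cells that release granules, had a signal of 4850.5 in CM cells, against 4963.7 in E/EM cells, a log2 ratio of -0.03. Scarb2, the membrane carrier of glucocerebrosidase, had 0.10 ± 0.14 (SD, 2 probe sets on 2 array types). Lamp2, a related protein that also serves chaperone-mediated autophagy, had -0.08 ± 0.19 over its 2 SubA probe sets (SD). Its SubC probe sets crossed the floor in opposite directions. For 1 of them CM cells had 456.9, against 125.3 in E/EM cells, at least 2.35-fold higher in CM cells. The other had 155.7 in CM cells, against 274.3 in E/EM cells, at least 1.41-fold lower in CM cells. Cd63, a tetraspanin of granule membranes, had a SubA signal of 25.5 in CM cells, under the floor, against 40.6 in E/EM cells, so its CM level has only an upper bound.

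Cd68, a glycoprotein of late endosomes best known from macrophages, was the member with the lowest ratio. It had a SubA signal of 89.4 in CM cells, against 199.5 in E/EM cells, a log2 ratio of -1.16 (2.23-fold lower) from 1 probe set, and its other probe set lay under the floor in both kinds. The deciding probe set carries a mark for sequences shared between transcripts. Of the 22 macrophage, monocyte and neutrophil markers named on the arrays, 7 had a ratio, with a median of -0.39, 6 of them below 0, 3 were above the floor in 1 kind only and 12 in neither. The neutrophil marker Ly6g had 17.1 in CM cells, under the floor, against 153.6 in E/EM cells, at least 4.91-fold lower in CM cells. Fcgr1 had 21.4 in CM cells, under the floor, against 36.8 in E/EM cells. C1qb went the other way, with 39.4 in CM cells, against 11.4 in E/EM cells, under the floor. SubC probe sets of C1qc and Elane also crossed the floor. C1qc had 186.0 in CM cells, under it, against 502.3 in E/EM cells. Elane had 201.6 in CM cells, against 55.2 in E/EM cells, under it. The summed signal of the macrophage, monocyte and neutrophil markers was 794.3 in CM cells, against 1092.1 in E/EM cells, over 31 SubA probe sets. Over 5 SubC probe sets it was 584.6 in CM cells, against 746.6 in E/EM cells. Lyz2, Adgre1, Itgam and Aif1, which define such cells, lay under the floor in both kinds. Above it in both kinds were Cd14 (log2 ratio -0.63), Msr1 (-0.61), Csf3r (-0.50), Mpeg1 (-0.39), Csf1r (-0.06), C1qc on SubA (-0.02) and Elane (0.22). The part of these markers in the Cd68 value was not tested.

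**Figure D3:**
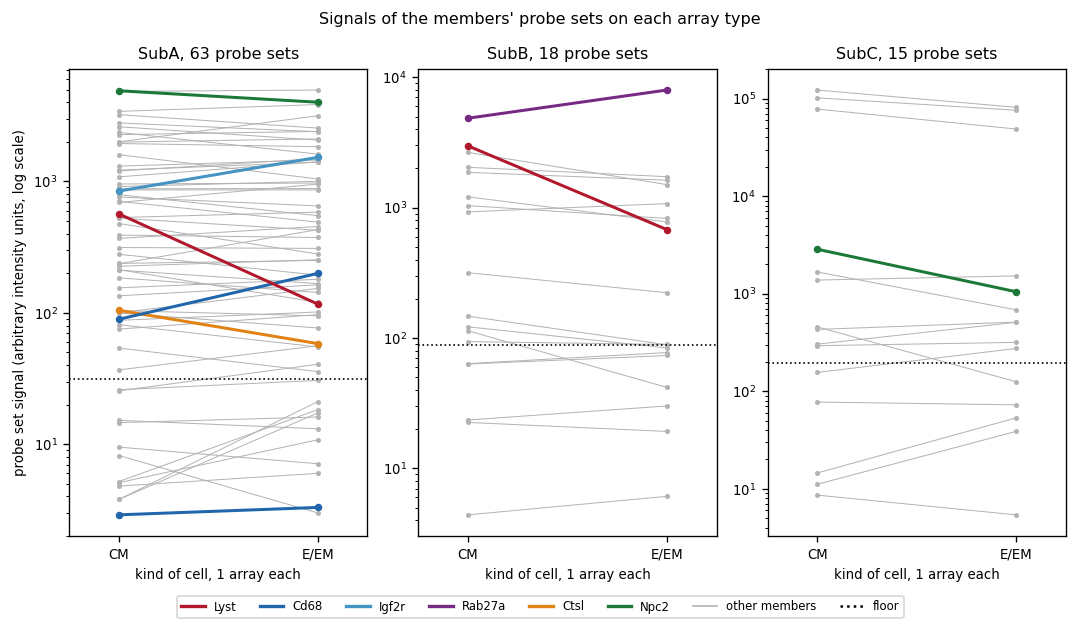
Signal of each member probe set (y axis, log scale, arbitrary intensity units) in CM cells (left) and E/EM cells (right), 1 array each, in a panel per array type; the dotted line is the floor. Coloured lines are the 6 genes at least 1.5-fold different, including a Cd68 probe set under the floor, and grey lines are the other members. The Lyst lines fall steeply to the right on both SubA and SubB, and most grey lines are close to level.

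None of the protease gene means was past 2-fold. Of 11 genes 9 were measured, 6 above 0 and 3 below, where 49.7% of all measured genes lay above 0. Their median log2 ratio was 0.34, but 0.08 where each gene took its brightest probe set and 0.17 with a floor at each table's 60th percentile. The cysteine cathepsins Ctsl, Ctss, Ctsb, Ctsw and Ctsc lay above 0, and Ctsz below it. Ctsl, which cuts proteins and the invariant chain in endosomes, had a SubA signal of 104.5 in CM cells, against 58.3 in E/EM cells, a log2 ratio of 0.84, where E/EM cells were at 1.86 times the floor. Ctss, an endosomal cathepsin known for invariant chain processing, had 2362.3 in CM cells, against 1615.1 in E/EM cells, a ratio of 0.55. Ctsb had 0.34 ± 0.24 (SD, 3 probe sets), with its brightest probe set at 0.08. Ctsw, a cathepsin found mainly in cytotoxic lymphocytes, had 3224.1 in CM cells, against 2548.4 in E/EM cells, a ratio of 0.34.

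Ctsc encodes dipeptidyl peptidase I, the enzyme that removes the propeptide of granzymes and so makes them active. Its 2 plain SubA probe sets had 792.4 and 478.3 in CM cells, against 549.3 and 280.5 in E/EM cells, and a SubC probe set had 1672.8 in CM cells, against 683.2 in E/EM cells. The remaining one, on SubA, had 75.2 in CM cells, against 96.9 in E/EM cells. The ratios were thus 0.53, 0.77, 1.29 and -0.37, with a mean of 0.56 ± 0.69 (SD, 4 probe sets), and 3 of the 4 lay above 0. Both the SubC probe set and the negative one carry a mark for probe sets that may match a gene family. The brightest probe set alone, on SubC, would put Ctsc past 2-fold.

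The remaining proteases were nearly level. The aspartic protease Ctsd, whose promoter is shown above, had 3414.7 in CM cells, against 3848.0 in E/EM cells, a log2 ratio of -0.17. Ctsa, a carboxypeptidase that also protects beta-galactosidase and neuraminidase, had -0.13 and the cysteine carboxypeptidase Ctsz had -0.14. Tpp1, a tripeptidyl peptidase lost in a childhood ceroid lipofuscinosis, had 0.27 ± 0.40 (SD, 3 probe sets), but -0.15 on SubA, against 0.64 and 0.33 on SubB. Both SubB probe sets of Tpp1 carry the mark for probe sets that may match a gene family. Ctsh and Lgmn were under the floor in both kinds.

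Glycosidases and sulfatases centred on 0, with 4 genes above and 4 below, a median of -0.04 and none of the 8 measured genes past 1.5-fold. Both enzymes that start the breakdown of heparan and dermatan sulfate were on the high side. Ids, iduronate 2-sulfatase, had 0.57 ± 0.19 (SD, 4 probe sets), and all 4 of its measured probe sets, on SubA and SubB, lay above 0. The brightest of them had 2651.0 in CM cells, against 1501.8 in E/EM cells. Idua, the iduronidase that acts after it, had 279.0 in CM cells, against 193.6 in E/EM cells, a ratio of 0.53. Gaa, which breaks down lysosomal glycogen, had 0.04 ± 0.26 (SD, 2 probe sets), and Hexa, a chain of beta-hexosaminidase, had 0.02.

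On the low side of that group, Glb1, beta-galactosidase, had -0.26 ± 0.06 (SD, 2 probe sets) and the sialidase Neu1 had -0.28 on SubA, while its SubB probe set had 113.5 in CM cells, against 41.8 in E/EM cells, under the floor. Man2b1, the alpha-mannosidase, had -0.20 ± 0.42 (SD, 3 probe sets). Its brightest probe set, on SubA, had 2788.4 in CM cells, against 2389.9 in E/EM cells, a ratio of 0.22. On SubB it had 928.2 in CM cells, against 1073.5 in E/EM cells (-0.21). A dim SubA probe set had 36.8 in CM cells, against 56.1 in E/EM cells (-0.61), with the weaker signal at 1.18 times the floor. Gusb, beta-glucuronidase, has no settled direction. It had 705.5 in CM cells, against 490.5 in E/EM cells, on SubA, and 303.7 in CM cells, against 508.8 in E/EM cells, on SubC, where the weaker signal was 1.56 times the floor. Gla, alpha-galactosidase, was under the floor in both kinds.

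Genes for lipid breakdown and cholesterol export were also mixed, with 4 above 0, 3 below and a median of 0.03 over 7 genes. Npc1 and Npc2, partners that pass cholesterol out of the lysosome, went apart. Npc1, the membrane transporter, had 1202.0 in CM cells, against 1494.5 in E/EM cells, a log2 ratio of -0.31. Npc2, the soluble carrier, had 4902.0 in CM cells, against 4009.1 in E/EM cells, on SubA, and 2857.9 in CM cells, against 1048.6 in E/EM cells, on SubC. Both its probe sets were higher in CM cells, but the ratios of 0.29 and 1.45 differ so much that the mean of 0.87 ± 0.82 (SD, 2 probe sets) says little about size, and without SubC it was 0.29.

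Psap, the precursor of the saposins that help sphingolipid hydrolases, had 0.36 ± 0.45 (SD, 3 probe sets), with the brightest at 0.34 and the others at -0.08 and 0.83. Gm2a, the activator that lifts GM2 ganglioside to beta-hexosaminidase, had 2002.7 in CM cells, against 3163.3 in E/EM cells, on SubA, and 147.0 in CM cells, against 88.7 in E/EM cells, on SubB. The SubB signal in E/EM cells was barely over the floor (1.007 times), and the mean of 0.03 ± 0.98 (SD, 2 probe sets) joins ratios of opposite sign. The acid ceramidase Asah1 had 0.30, the acid lipase Lipa -0.16 and the palmitoyl thioesterase Ppt1 -0.25. A further Ppt1 probe set, on SubB, had 121.8 in CM cells, against 84.0 in E/EM cells, under the floor.

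The granule cargo scaffold and a granule membrane protein differed in sign. Srgn, serglycin, is the proteoglycan core on which granzymes and perforin are packed, and it had 692.1 in CM cells, against 955.2 in E/EM cells, a log2 ratio of -0.46 from 1 probe set. Nkg7 is a granule membrane protein of natural killer and cytotoxic T cells that takes part in granule release. On SubC its 3 probe sets had 122567.6, 101935.9 and 78213.0 in CM cells, against 81604.2, 76076.9 and 48849.2 in E/EM cells. All 3 were higher in CM cells, with a mean log2 ratio of 0.56 ± 0.13 (SD, 3 probe sets), short of 2-fold, and 0.35 after quantile normalization. Signals on SubC reached 224120.1 in CM and 188119.9 in E/EM cells, against highest SubA signals of 27923.4 in CM and 26702.9 in E/EM cells, and levels were not compared between array types.

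Of the 7 genes for vesicle docking and fusion, 5 lay below 0 and 2 above, where 49.7% of all measured genes lay above 0. Their median log2 ratio was -0.12. Rab27a, the small GTPase that docks lytic granules at the plasma membrane and is lost in Griscelli syndrome, had a SubB signal of 4852.7 in CM cells, against 7980.7 in E/EM cells. Its ratio of -0.72 from 1 probe set was the lowest of the group. Stx7, a syntaxin of late endosome fusion, had 236.2 in CM cells, against 429.8 in E/EM cells, on SubA, and 293.0 in CM cells, against 316.7 in E/EM cells, on SubC. Both of its ratios were negative, -0.86 and -0.11, with a mean of -0.49 ± 0.53 (SD, 2 probe sets). Its partner Stx8 had -0.27 ± 0.49 (SD, 2 probe sets), with a CM signal 0.652 times the E/EM signal of 153.4 on SubA, and 93.8 in CM cells, against 89.2 in E/EM cells, on SubB, where both signals were just over the floor.

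Stxbp2, also called Munc18-2, holds the syntaxin that granules fuse with, and its loss in humans impairs killing. It had 1084.0 in CM cells, against 1412.5 in E/EM cells, for its brighter probe set and 104.0 in CM cells, against 94.9 in E/EM cells, for the dimmer, with a mean of -0.12 ± 0.36 (SD, 2 probe sets). Vamp8 and Vamp7, SNAREs on the granule side, had -0.04 ± 0.05 and 0.29 ± 0.07 (SD, 2 probe sets each). Rab7, the GTPase of late endosomes, had 1598.6 in CM cells, against 1044.5 in E/EM cells, for a probe set marked as shared and 956.4 in CM cells, against 972.7 in E/EM cells, for the other. The mean of 0.29 ± 0.45 therefore rests on the shared probe set (SD, 2 probe sets).

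Agreement between probe sets limits how finely these genes can be ordered. Of 21 members with at least 2 ratios, 9 had all ratios of 1 sign and 12 had both signs, where 48.5% of 4094 such genes on the arrays had both. The median SD over probe sets was 0.36 for those 21 members and 0.32 for the 4094 genes. The array types differed in a like way. Of 13 members measured on SubA and on another type, 7 had the same sign on both, and the median difference in size was 0.64 on the log2 scale. For Lyst the difference was 0.15. Of the 41 member ratios, most were below 0.64 in size.

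Other genes of the pathway were written as 5 further lists. They held 142 symbols, of which 126 had a probe set and 124 a ratio, with a median log2 ratio of 0.04, and past 2-fold lay 4 genes lower and 6 genes higher in CM cells, where 5.61% and 2.73% of all measured genes passed. The largest was Nagpa at 2.45, the Golgi enzyme that uncovers the mannose 6-phosphate tag, with 665.8 in CM cells, against 121.7 in E/EM cells, and the weaker signal was only 1.38 times the floor. Ap1s2, a small chain of the AP-1 adaptor of the Golgi, had 1592.5 in CM cells, against 530.1 in E/EM cells, a ratio of 1.59. Hps3, part of a complex for lysosome-related organelles, had 1.01, and Rab38, a GTPase of the same route, had -1.27. The Hps3 and Rab38 values each rest on 1 SubB probe set, with weaker signals at 1.11 and 1.33 times the floor. The median of the 34 measured sorting genes was 0.07.

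Further hydrolases had a median of -0.22 over 25 genes, with 8 above 0 and 17 below, where 49.7% of all measured genes lay above 0. Arsb, the sulfatase of dermatan and chondroitin sulfate, had 5880.7 in CM cells, against 2287.3 in E/EM cells, a ratio of 1.36, and Ggh, which trims folate polyglutamates, had 1.03. The sialic acid exporter Slc17a5 had 489.2 in CM cells, against 201.7 in E/EM cells, a ratio of 1.28, and was the only gene past 2-fold among 19 further membrane proteins. Each of these 3 values rests on 1 probe set, and 2.73% of all measured genes were at least 2-fold higher in CM cells.

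The proton pump that acidifies lysosomes had a median of 0.02 over 16 subunits, with 2 at least 2-fold lower in CM cells, where 5.61% of all measured genes were. Atp6v0a1, 1 form of the large membrane chain, was lower on all 3 array types. It had 65.1, 247.1 and 1020.2 in CM cells on SubA, SubB and SubC, against 118.4, 589.0 and 3009.1 in E/EM cells. Its log2 ratio was -1.23 ± 0.35 (SD, 3 probe sets). Other forms of that chain were Atp6v0a2, at 0.34 ± 0.05 (SD, 3 probe sets), and Tcirg1, at -0.18 ± 0.09 (SD, 2 probe sets). Atp6v0d1, another chain of the membrane sector, had -1.12 ± 0.94 (SD, 3 probe sets), but its brightest probe set, on SubA, had only -0.31. On SubC its weaker signals were 1.26 and 1.78 times the floor.

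Among 30 further docking and fusion genes, with a median of 0.10, Stx11 alone passed 2-fold. It was lower in CM cells, as 5.61% of all measured genes were by that rule. Stx11 is a syntaxin for lytic granule fusion, bound by Stxbp2, whose loss in humans causes familial haemophagocytic lymphohistiocytosis. Its SubC probe sets had 1613.7 and 225.8 in CM cells, against 4575.4 and 510.5 in E/EM cells. The log2 ratio was -1.34 ± 0.23 (SD, 2 probe sets), and the weaker signal of the dimmer probe set was 1.16 times the floor. Unc13d, the priming factor Munc13-4 of the same step, had 2038.5 in CM cells, against 2257.3 in E/EM cells, a ratio of -0.15, and was singled out after its value was seen.

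For the cargo of the granules, a list written with these values known, the ratios spread widely. Of 12 cargo and related genes named on the arrays, 8 had a ratio, 5 of them past 2-fold lower and 1, Gzmm, past 2-fold higher in CM cells, where 5.61% and 2.73% of all measured genes passed. The median log2 ratio was -2.40, and lay between -3.47 and -0.50 over the processing alternatives. A further 3 were above the floor in E/EM cells alone. Some of the granzymes are close copies, and the probe sets of those may share signal. The list was not tested against the member list.

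**Figure D4:**
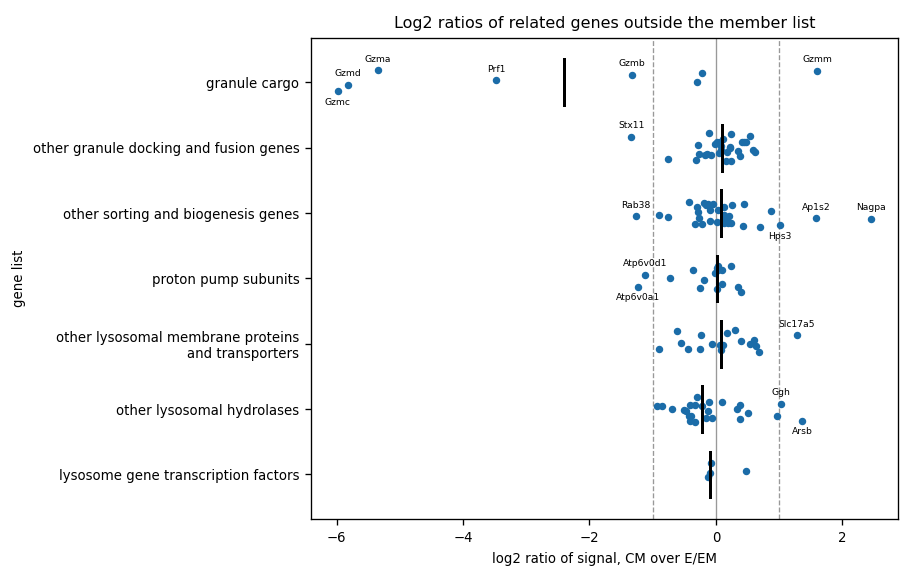
CM over E/EM signal as log2 ratio (x axis) for measured genes of 7 lists outside the member list (y axis, points spread vertically for legibility); black ticks are list medians, dashed lines mark 2-fold, and genes past it are named. Granule cargo reaches -5.98, while the other lists centre between -0.22 and 0.10.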

How the data were processed

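Total RNA of 2 kinds of cultured CD8+ T cells was measured on 3 array types, 1 array per kind and type, and samples were grouped by their titles. The values the authors deposited are linear probe set intensities in 1 table per array type. Their mean without the lowest and highest 2% was between 500.1 and 500.3 on each array, so they were used as deposited. The software is not named in the labels or tables used here. Symbols were those of the platform annotation in GEO. Probe sets with several symbols named no gene, and all 46 member symbols matched a RefSeq table (GRCm38.p6) by Entrez identifier.

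For each table, the 90th percentile over 15 bacterial control probe sets was taken on both arrays, and the higher one was the floor. Between 47.1% and 69.1% of probe sets lay above it, least on SubC. With so few arrays, precision is limited throughout. A gene's value was the mean log2 ratio (CM over E/EM) of its probe sets above the floor on both arrays. A gene above it in 1 kind only got a bound, its signal divided by the floor. Calls were by size, 2-fold or 1.5-fold, with no test.

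The members and lists were chosen with earlier results of these data known. All members are accounted for. Given in full, by the signals or the ratio of each measured probe set, are those at least 1.5-fold different and those whose probe sets differ in sign and by over 0.5. From the other lists come genes at least 2-fold different, at most 4 per list, except the cargo genes, which are given as counts. Alternatives changed the normalization, centring, floor, probe sets, array types, size rule or pseudocount. Calculations were tested on simulated data and used Python 3.11.15, NumPy 2.4.6 and pandas 2.3.3.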

Additional observations from a re-analysis of the deposited data

How the results depend on the processing

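The median log2 ratio of the members lay between -0.08 and 0.22 over the settings, the highest without SubA, where only 16 members had a ratio. Lyst stayed past 2-fold in every setting that was run. The members at least 2-fold higher numbered 2 of 41 with the brightest probe set per gene (Ctsc joined), where 3.97% of all measured genes passed. They numbered 3 of 16 without SubA, where 4.2% passed, and 3 of 41 by a 1.5-fold rule, where 10.1% passed. The members at least 2-fold lower numbered 3 by a 1.5-fold rule, where 13.9% of all measured genes passed, and 0 by a 3-fold rule, where 1.54% passed. They numbered 0 with a floor at each table's 60th percentile, with plain probe sets only and without SubA. These settings leave out the Cd68 probe set, and 3.44%, 5.43% and 6.7% of all measured genes passed in them. With the floor added as a pseudocount the number was also 0, where Cd68 had -0.48 and 2.93% of all named genes passed. Of the 41 measured members 29 kept 1 sign in every setting and 12 did not. Those 12 all had a reported ratio of at most 0.29 in size. However, 20 of the 41 rest on a single ratio, which most floor, probe set and array type settings can only repeat or drop. For these 20 a kept sign says little about how firm the direction is. The lipid group's median was 0.73 without SubA, over 3 genes. The cargo list's median was -3.47 with the floor halved, -1.33 with it doubled, -0.50 with it at the 60th percentile, -0.81 with plain probe sets and -1.95 with the pseudocount. The floor and probe set settings change how many cargo genes have a ratio, and the pseudocount also shrinks ratios with a weak CM signal. Medians of fewer than 3 genes were not computed. No paired analysis was possible because each kind has 1 array per array type.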

Other observations

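Of the listed transcription factors of lysosomal genes, 4 had a ratio. Tfeb had a SubA signal of 119.5 in CM cells, against 130.0 in E/EM cells, a log2 ratio of -0.12. Tfe3 had -0.08 ± 0.31 (SD, 3 probe sets), but a further SubB probe set had 364.4 in CM cells, against 78.1 in E/EM cells, under the floor, at least 4.13-fold higher in CM cells. Usf1 and Usf2, factors that bind the same word, had -0.10 ± 0.15 (SD, 2 probe sets) and 0.47. Mitf was under the floor in both kinds.

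Some markers of other cell types were above the floor in both kinds. B cell markers summed to 9478.7 in CM cells, against 7371.1 in E/EM cells, over 25 SubA probe sets, but most of the sum came from 2 Ighm probe sets, with 5306.6 and 3311.8 in CM cells, against 3802.4 and 2711.3 in E/EM cells. Of the 7 named on the arrays 6 had a ratio. Cd79a (-0.51), Ms4a1 (-0.47), Pax5 (-0.32) and the Ighm mean (-0.01) were below 0, and Cd79b (0.39) and Blk (0.41) above it. Cd22 had 36.3 in CM cells, against 13.1 in E/EM cells, under the floor. Mast cell and basophil markers summed to 364.5 in CM cells, against 700.3 in E/EM cells, over 14 SubA probe sets, with 3 of 9 measured and a median of -0.99. Dendritic cell markers summed to 810.3 in CM cells, against 1155.9 in E/EM cells, over 8 SubA probe sets, and to 771.1 in CM cells, against 518.9 in E/EM cells, over 3 SubC probe sets. Of these 9 markers 7 had a ratio, 4 above 0 and 3 below, with a median of 0.03. H2-Ab1 (-1.29) and H2-Eb1 (-1.23) lay at the low end. Itgax lay at the high end, with 130.3 in CM cells, against 43.1 in E/EM cells. Between them were H2-Aa (0.34), Cd209a (0.44), Xcr1 (0.03) and Flt3 (-0.19). The CM signal of H2-Eb1 (50.1) and the E/EM signal of Itgax were not far above the SubA floor of 31.28. The E/EM signals of H2-Aa (252.9) and Cd209a (242.5) were not far above the SubC floor of 194.34. The part of such cells in the member values was not tested.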
